A study of Mus musculus with 15 samples.

Results

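The 9 genes described here carry out the core steps by which cells show peptides on major histocompatibility complex (MHC) class I molecules. They were chosen by symbol among the 31017 genes counted in every library: H2-K1, H2-D1, B2m, Tap1, Tap2, Tapbp, Psmb8, Psmb9 and Psmb10. All 9 symbols had a row in all 15 libraries. The rule of choice names symbols and uses no measured value, but earlier results of these data were known when it was made.

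The libraries are RNA immunoprecipitations (RIP, the sequencing of RNA pulled down with an antibody) from mice that carry a dominant allele of Dnmt1, whose product copies DNA methylation after replication. Fibroblast lines grown from tails of wild type (WT), Het and Hom littermates were crosslinked with 1% formaldehyde, and a rabbit anti-Dnmt1 antibody gave 2 libraries per genotype (Dnmt1 RIP). For the m5C RIP, 1 µg of messenger RNA was incubated with an antibody against 5-methylcytosine, giving 2 WT, 1 Het and 1 Hom library from fibroblasts and 1 library per genotype from cortex. A library titled input accompanied each tissue, with IgG as its antibody label and no genotype of its own. The sources used here give neither the mutated residue, the strain and age of the mice, nor the number of lines behind the libraries. Nothing says that libraries of 1 genotype came from separate cultures, so a p-value measures only how far these libraries spread, which may be technical. No genotype has an input of its own, so RNA abundance and RNA pulled down cannot be told apart between genotypes.

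Class I molecules present fragments of proteins made inside the cell to CD8 T cells and are inspected by natural killer cells. The heavy chains H2-K1 and H2-D1 pair with the light chain B2m; Tap1 and Tap2 form the transporter that carries peptides into the endoplasmic reticulum; Tapbp (tapasin) holds the empty molecule at that transporter. Psmb8, Psmb9 and Psmb10 are the catalytic subunits of the immunoproteasome and take the places of Psmb5, Psmb6 and Psmb7. Interferon gamma raises the whole set, fibroblasts and macrophages both express it, and most neurons in the brain hold little of it.

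Of these genes, 7 lie in the MHC on chromosome 17 and the other two elsewhere, in mm10 with the models of GENCODE M21. H2-K1 spans chr17:33996017-34000347 on the minus strand and H2-D1 chr17:35262730-35267499 on the plus strand. Psmb9, Tap1, Psmb8 and Tap2 follow each other between positions 34181987 and 34216321 of that chromosome, and Tapbp spans chr17:33915899-33929292. B2m spans chr2:122147686-122153083 on the plus strand and Psmb10 chr8:105935735-105938444 on the minus strand. Exons of Tap1 and Psmb9 share 212 bases on opposite strands, and exons of Tap2, Tapbp and Psmb8 also overlap other annotated genes. The sources used here do not give the strand setting of the counting, so reads in those bases cannot be assigned. Of all 50-letter words in the transcripts of H2-K1, 9.63% also occur in transcripts of other genes, and of those of H2-D1 12.8%, with 141 words common to both. Counts of the heavy chains are therefore uncertain where the counting could split such reads, while B2m, Psmb9 and Psmb10 had no such word.

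The promoters of the heavy and light chains are shown because these 3 genes had the highest levels per length in fibroblast m5C RIP and had log2 fold changes within 1 SE of each other between tissues. RefSeq's promoter table (GRCm38.p6) held 8 of the 9 genes, all but Tap2. Each sequence below is the 180 bases before the start site in that table. For H2-D1 these bases lie inside the GENCODE span given above, since the annotations place its start differently. Capitals mark matches, on the strand shown, to GGGATTCCC (an NF-kB site), TTTCACTTC (from the interferon element of class I genes), GAAANNGAA (from the core of interferon-stimulated elements) and TGACGNNNNNNNNNNNNNNNNNNNNATTGG (the X2 and Y boxes at their usual spacing).
H2-K1, chr17:34000348-34000527, minus strand: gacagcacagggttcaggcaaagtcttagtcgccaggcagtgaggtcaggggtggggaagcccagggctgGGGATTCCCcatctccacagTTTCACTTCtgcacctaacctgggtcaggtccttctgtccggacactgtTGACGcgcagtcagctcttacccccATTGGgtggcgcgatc
H2-D1, chr17:35262914-35263093, plus strand: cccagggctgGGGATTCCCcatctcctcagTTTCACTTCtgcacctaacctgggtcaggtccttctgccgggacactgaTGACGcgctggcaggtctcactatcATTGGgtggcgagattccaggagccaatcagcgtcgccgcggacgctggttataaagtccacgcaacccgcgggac
B2m, chr2:122147507-122147686, plus strand: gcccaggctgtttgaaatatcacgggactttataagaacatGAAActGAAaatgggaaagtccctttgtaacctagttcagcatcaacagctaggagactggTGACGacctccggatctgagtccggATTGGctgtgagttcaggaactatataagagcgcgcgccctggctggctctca

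Matches were searched on both strands in windows of 300 bases, 250 before and 50 after the start site. The spaced X2 and Y boxes occurred in 0.0944% of all 32851 promoters of that length and in 3 of the 8 members with an entry, which are the 3 shown. TTTCACTTC occurred in 0.505% and GGGATTCCC in 0.353% of promoters, and among the members in H2-K1 and H2-D1 alone. GAAANNGAA occurred in 8.56% of promoters and among the members in B2m alone. The H2-K1 and H2-D1 promoters were 73.3% identical over 240 aligned bases. The windows of Tap1 and Psmb9 overlap by 275 bases, because both genes start from the same stretch in opposite directions. A match describes letters in the window, not a bound site.

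Levels below are counts-per-million values (CPM) of a library's gene counts, with 4 genes that took 4.01 to 63.5% of a library (Lars2, Gm42418, Gm26917 and Gm10800) left out of the total. Gene counts ranged from 217173 to 4913482 per library, and the 9 genes together from 11 counts in fibroblast input to 5658 in fibroblast m5C Het. A level of 0 allows up to 3 counts, which is 31.5 CPM in fibroblast input, 2.52 to 15.5 CPM in the Dnmt1 RIP, 1.44 to 4.37 CPM in fibroblast m5C RIP and 1.30 to 2.44 CPM in cortex m5C RIP. Intervals and this limit cover counting error only. Dnmt1 itself ranged from 413 to 10690 CPM, the highest in m5C WT library 1, followed by 10150 CPM in Dnmt1 RIP Hom library 2. In all 31017 genes m5C WT library 1 held at least as many counts as the m5C Hom library, and 7163 of its 21049 detected genes had equal counts. For the members the excess of WT library 1 was 0 to 23 counts per gene and 71 counts in all, with Psmb8 and Psmb9 equal. WT library 1 held 249780 counts beyond the Hom library, a total that keeps the 4 abundant genes. With those genes kept in each total, unlike the levels elsewhere, the members stood at 284 CPM in this excess. On the same scale they stood at 3743 CPM in Hom and 2269 CPM in WT library 2. WT library 1 and the Hom library are therefore not separate measurements of the members. The main results that rest on WT library 1 are also given without it.

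The clearest pattern in the m5C RIP was between tissues. All 9 genes were higher in fibroblasts than in cortex, in each genotype and with no overlap between the 4 fibroblast and 3 cortex libraries. The difference ran from 3.96-fold for Psmb10 to 32.4-fold for Psmb8 and 37.6-fold for Psmb9, which had 3 counts in cortex, with H2-K1, H2-D1 and B2m between 23.8-fold and 24.9-fold. By edgeR's quasi-likelihood test all 9 passed an adjusted p of 0.05, where 33% of the 14193 genes tested were called higher and 63.9% were called in either direction. The filter on low counts keeps a gene that is high enough in a single library. Members with few cortex counts, such as Psmb8 and Psmb9 with at most 4 per cortex library, entered the test through their fibroblast libraries. Their calls are therefore not independent of that filter. Groups did not overlap, with fibroblasts higher, in 31.8% of genes tested.

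**Figure D1:**
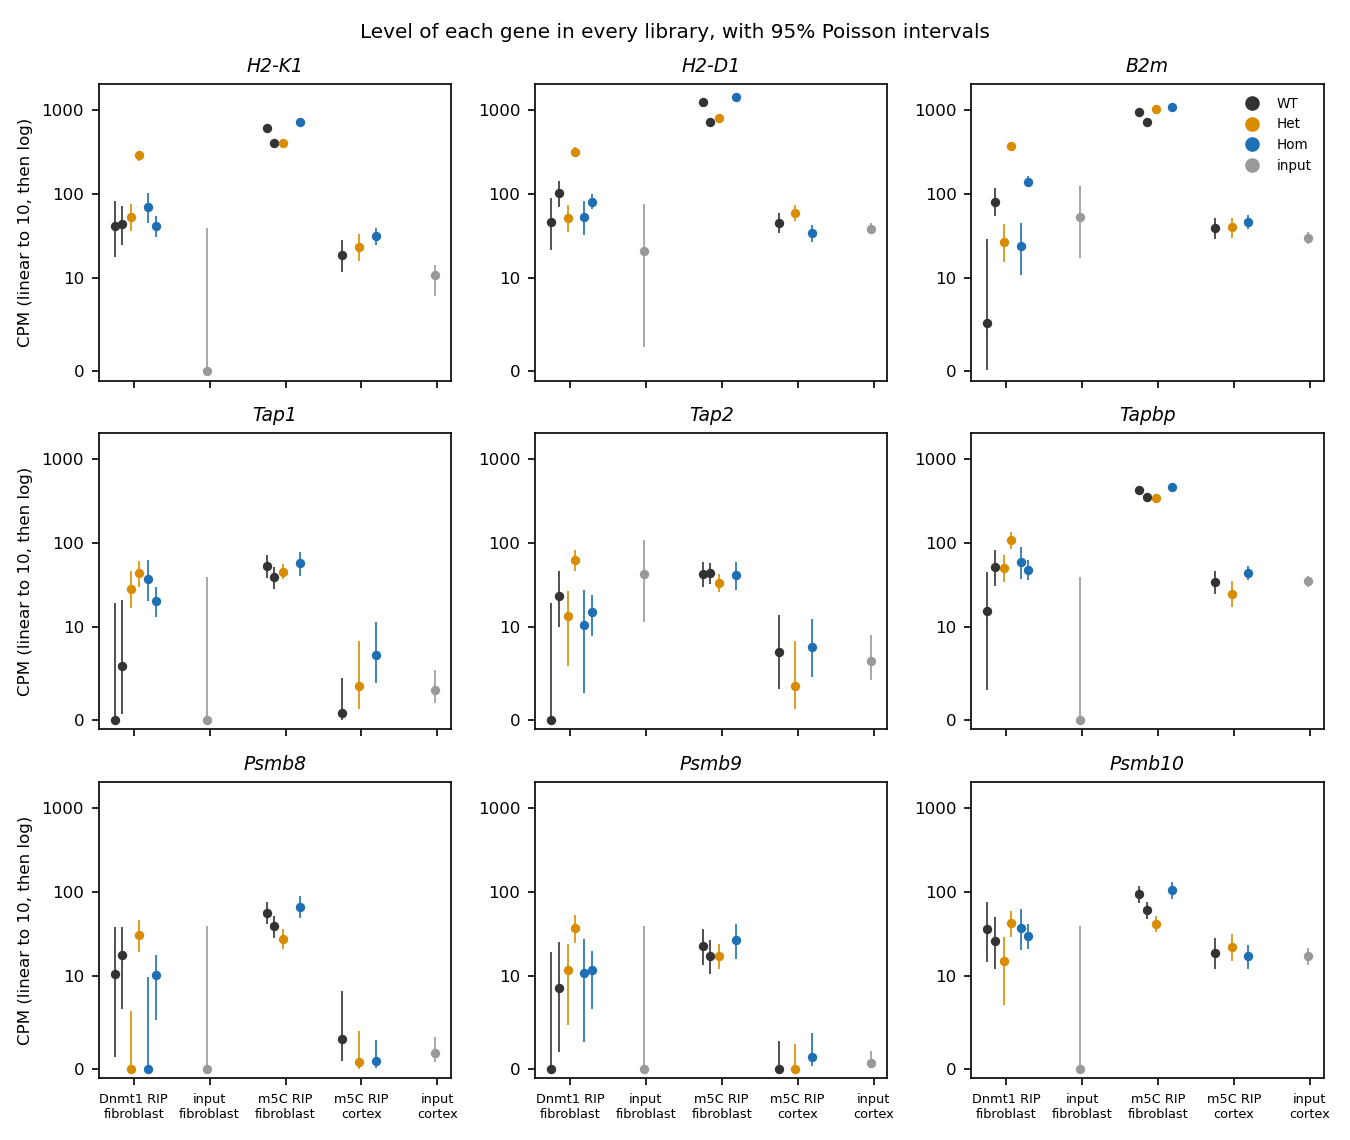
Level of each of the 9 genes in all 15 libraries (vertical axis, CPM, linear to 10 and logarithmic above; horizontal axis, antibody and tissue; points, single libraries coloured by genotype; bars, 95% Poisson intervals of the count). The 4 fibroblast m5C libraries lie above the 3 cortex m5C libraries in every panel. Dnmt1 RIP Het library 2 is the highest Dnmt1 RIP library in every panel, and its interval lies clear of the others for the heavy chains and B2m alone.

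Among the heavy chains, H2-K1 stood at 614 and 407 CPM for the fibroblast WT libraries, 401 for Het and 715 for Hom, against 18.7 (WT), 23.3 (Het) and 31.3 CPM (Hom) for cortex. For H2-D1 the fibroblast WT pair held 1226 and 713 CPM, Het 806 and Hom 1416, against 45.5, 59.7 and 33.9 CPM in cortex. The lowest fibroblast library was thus far above the highest cortex library for both heavy chains. The log2 fold change was 4.57 ± 0.24 (SE) for H2-K1 (adjusted p = 1.87e-09) and 4.61 ± 0.30 for H2-D1 (adjusted p = 9.55e-09). B2m, the light chain shared by all class I molecules, was at 945 and 722 CPM for fibroblast WT, 1013 for Het and 1073 for Hom, against 39.0, 40.1 and 46.1 CPM in cortex. Its log2 fold change of 4.64 ± 0.22 (adjusted p = 1.12e-09) was within 1 SE of those of both heavy chains.

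The transporter genes differed less. Tap1 was at 52.3 and 38.6 CPM for fibroblast WT, 45.3 for Het and 56.9 for Hom, against 0.813, 3.64 and 6.95 CPM in cortex, the cortex values resting on 1, 5 and 16 counts. For Tap2 the WT pair held 42.4 and 43.8 CPM, Het 33.2 and Hom 40.8, against 7.32, 3.64 and 7.82 CPM in cortex. Both transporter chains were therefore separated by tissue, Tap1 by a log2 fold change of 3.76 ± 0.39 (adjusted p = 7.93e-07) and Tap2 by 2.74 ± 0.32 (adjusted p = 3.19e-06). Tapbp, which bridges class I molecules to the transporter, was at 421 and 350 CPM for WT, 340 for Het and 465 for Hom, against 34.1, 24.8 and 43.9 CPM in cortex, a log2 fold change of 3.65 ± 0.21 (adjusted p = 3.51e-09).

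The 3 immunoproteasome subunits spanned the widest range. Psmb8 was at 56.1 and 38.6 CPM for fibroblast WT, 27.4 for Het and 65.6 for Hom, against 3.25, 0.728 and 0.869 CPM in cortex, where it rested on 7 counts in all. For Psmb9 the WT pair held 22.4 and 17.2 CPM, Het 17.3 and Hom 26.2, and cortex had only 3 counts, all in Hom. The fitted log2 fold changes were 5.02 ± 0.45 for Psmb8 (adjusted p = 1.97e-07) and 5.23 ± 0.69 for Psmb9 (adjusted p = 9.73e-06). Because the cortex counts of Psmb9 were so few, its pooled ratio of 31.8 carries a 95% counting interval from 10.5 to 157. Fitted values resting on few cortex counts moved when 1 library was left out, with all calls kept: Psmb9 reached 7.85 without the fibroblast Hom library and 7.55 without the cortex Hom library, where Tap1 was at 4.44 and 4.41 and Psmb8 at 4.33 and 4.30. Psmb8 was at 5.87 without the cortex WT library. Psmb10, the subunit with the least difference between tissues, was at 93.4 and 60.1 CPM for WT, 41.4 for Het and 104 for Hom, against 18.7, 21.9 and 16.9 CPM in cortex (log2 fold change 1.99 ± 0.29, adjusted p = 3.3e-05).

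The median log2 fold change of the 9 genes was 4.57, against 0.06 over all genes tested. Without m5C WT library 1 it was 4.5, and all 9 were still called. Of the other class I heavy chain genes in the fixed list, 7 of 8 tested rose in fibroblasts over cortex and none fell (median 2.56), among them H2-T23 by 2.18 ± 0.27 and H2-M3 by 3.5 ± 0.57, both nonclassical class I chains. Of the peptide loading and trimming partners, 8 of 14 rose and 1 fell (median 1.00). Hspa5, an endoplasmic reticulum chaperone, rose by 2.49 ± 0.19 and Pdia3, which works beside tapasin, by 2.64 ± 0.22. Psme2, a subunit of the proteasome activator PA28, rose by 2.68 ± 0.28, while Lnpep, an aminopeptidase, fell by 1.15. Of 15 other 20S proteasome genes 14 rose and 1, Psmb7, fell by 0.79 (median 1.49). Psmb7 is the constitutive subunit whose place Psmb10 takes.

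Among regulators of class I genes, 12 of 19 rose and 2 fell (median 1.13). Nlrc5, the class I transactivator, was higher by 2.48 ± 0.48, and the interferon response factors Irf1 by 2.92 ± 0.36 and Irf8 by 2.83 ± 0.31, but Rfx5, a factor bound at the X box, fell by 1.33. Nlrc5, Irf1 and Rfx5 were picked from the list after their values were seen. Of the MHC class II genes, 2 of 5 tested rose, H2-DMb1 by 3.99 ± 0.45 and H2-Ab1 by 2.0 ± 0.77. Leaving out m5C WT library 1, 8 of 10 class I heavy chain genes rose (median 2.56), 8 of 14 loading and trimming partners rose and 1 fell (1.02), 14 of 15 proteasome genes rose and 1 fell (1.48), 12 of 19 regulators rose and 3 fell (1.10), and 2 of 5 class II genes rose (1.24). Summed class II levels were 67.1 to 79.0 CPM in fibroblast m5C RIP and 22.8 to 45.2 CPM in cortex m5C RIP.

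Markers of macrophages and fibroblasts moved with the members between tissues, while those of neurons, astrocytes and endothelial cells mostly went the other way. Of 17 macrophage and microglia markers, 16 rose in the fibroblast libraries and none fell (median log2 fold change 5.26), with Lyz2 at 10.91 ± 0.39 and Fcer1g at 7.54 ± 0.30. Their summed level was 8461 to 15330 CPM in fibroblast m5C RIP and 222 to 238 CPM in cortex m5C RIP. Fibroblast markers rose in 9 of 11 (median 4.58), with a summed level of 24760 to 30910 CPM against 527 to 633 CPM. All 12 neuron markers fell (median -3.34). When m5C WT library 1 was left out, the counts were 16 of 17, 9 of 10 and 12 of 12, with medians of 5.34, 4.76 and -3.41. Endothelial markers fell in 5 of 9 tested and rose in 1 (median -1.85), and astrocyte markers fell in 7 of 8 (median -3.07). Of 2 lymphocyte markers tested, 1 rose (median 2.87). Without that library, endothelial markers again fell in 5 of 9 and rose in 1, and astrocyte markers fell in 7 of 8. The 1 lymphocyte marker then tested was not called. In bulk libraries, fewer cells of a type and less RNA per cell cannot be told apart, and the part that macrophage RNA had in the level of the members was not tested.

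**Figure D2:**
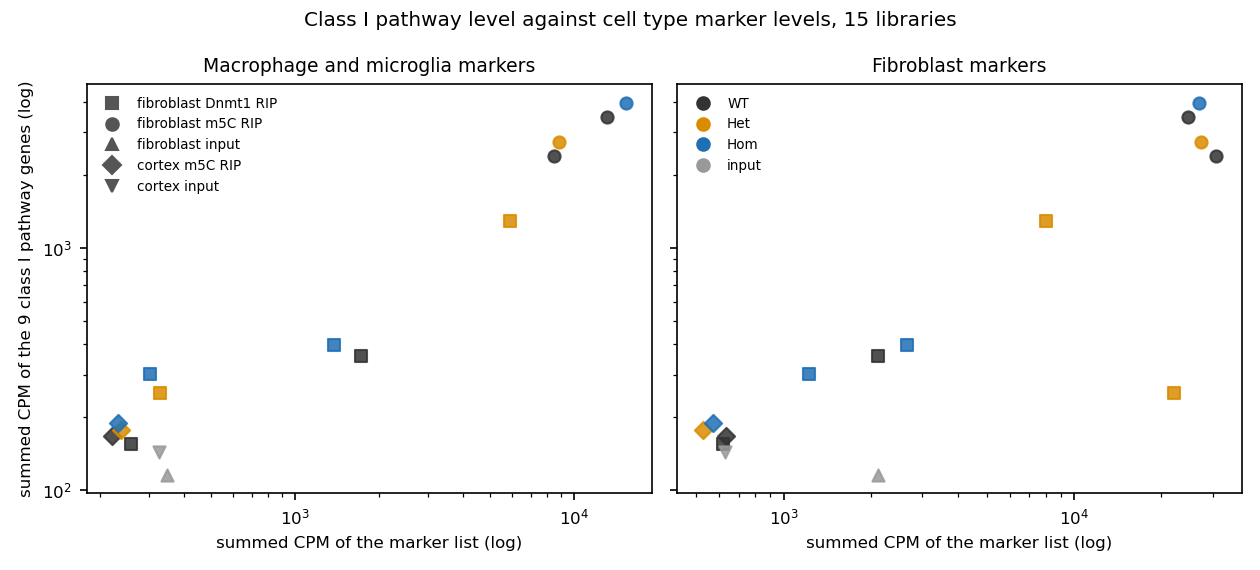
Summed CPM of the 9 class I pathway genes (vertical, log axis) against the summed CPM of macrophage and microglia markers (left) and of fibroblast markers (right), both on log axes, for the 15 libraries; shape marks antibody and tissue, colour the genotype. Dnmt1 RIP Het library 1 has fibroblast markers near the m5C level with the members at 250.6 CPM. Het library 2 has macrophage markers at 5904 CPM, fibroblast markers at 8036 CPM and the members at 1294 CPM. Both of its marker sums lie above those of the WT and Hom Dnmt1 RIP libraries. The part of either cell type in the level of the members was not tested.

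Per kilobase of exon, B2m led in fibroblast m5C RIP with 840 to 1248 CPM per kb, followed by H2-D1 (276 to 549), H2-K1 (136 to 243), Tapbp (93.7 to 128) and Psmb10 (24.3 to 60.7). The ranges of these 5 did not overlap. Below them came Psmb8 (8.12 to 19.4), Tap2 (8.79 to 11.6), Tap1 (7.06 to 10.4) and Psmb9 (4.69 to 7.17), and each of these overlapped the next. In cortex m5C RIP B2m (45.4 to 53.6) and H2-D1 (13.1 to 23.2) again led. Psmb10 was then at 9.94 to 12.8, Tapbp at 6.83 to 12.1 and H2-K1 at 6.36 to 10.7 CPM per kb, with ranges that overlapped. The other members were at 2.07 CPM per kb or below.

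The balance between the paired products of the pathway was also set out by library. H2-D1 made up 63.7 to 66.8% of the counts of the 2 classical heavy chains in the fibroblast m5C libraries. In cortex m5C RIP its share was 70.9% in WT (95% exact binomial interval 59.6 to 80.6%), 71.9% in Het (62.7 to 79.9%) and 52.0% in Hom (43.7 to 60.2%), and in cortex input 77.9%. The share in cortex Hom was thus the lowest of the 4 cortex libraries, with a single library per genotype.

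Psmb8, Psmb9 and Psmb10 together made up 37.1 and 33.8% of catalytic subunit counts for fibroblast m5C WT, 26.7% for Het and 38.8% for Hom. In cortex the share was 12.4% (WT), 10.8% (Het), 9.71% (Hom) and 14.3% (input). No cortex interval reached a fibroblast m5C interval. By pair, Psmb8 against Psmb5, its constitutive counterpart, stood at 25.3 to 42.5% in fibroblast m5C RIP and 1.64 to 6.35% in cortex m5C RIP. For Psmb10 against Psmb7 the shares were 56.2 to 75.5% and 19.2 to 28.1%. Psmb9 against Psmb6 stood at 11 to 12.7% in fibroblasts and at 0 to 1.95% in cortex. In the Dnmt1 RIP the combined share ran from 10.3% in Het library 1 to 35.2% in Het library 2, and fibroblast input held 0 of 23 such counts, which allows up to 14.8% by the exact interval.

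**Figure D3:**
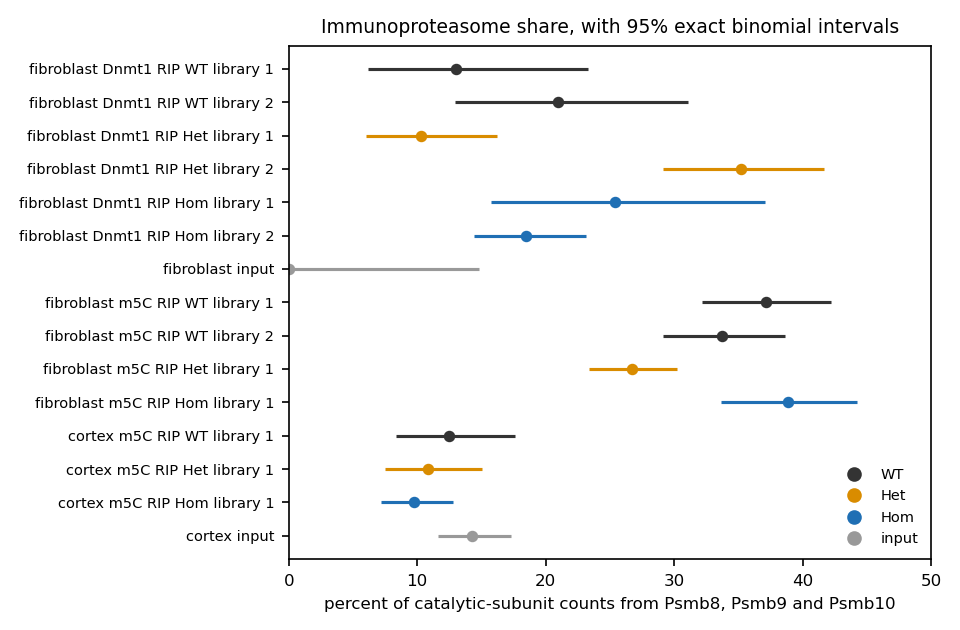
Percent of the counts of the 6 catalytic proteasome subunits that came from Psmb8, Psmb9 and Psmb10 (horizontal axis) in each library (vertical axis), coloured by genotype, with 95% exact binomial intervals. The fibroblast m5C libraries lie between 26.7 and 38.8% and the cortex libraries between 9.71 and 14.3%.

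The m5C libraries were next set against input, to ask whether the members stood out in the RNA pulled down. Each input is a single library, so its spread is assumed to equal that of the other groups in these fits and in the one of the Dnmt1 RIP against input. In cortex 0 of 9 passed the test (0.193% of 14501 genes did), DESeq2 also called 0, a single member had an unadjusted p under 0.05, and the median log2 fold change was 0.09 against -0.09 over all genes. H2-K1 had 10.9 CPM in cortex input and 18.7 to 31.3 CPM in the 3 m5C libraries, all above input, with a log2 fold change of 1.13 ± 0.40 (adjusted p = 0.706). B2m had 29.9 CPM in input, below the 39.0 to 46.1 CPM of the m5C libraries. These were the only members whose cortex m5C levels all lay above input, as did 20% of genes tested. The other 7 had input levels within the range of the m5C libraries.

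In fibroblasts the input library was shallow and held only 3 of the members, H2-D1 with 2 counts, B2m with 5 and Tap2 with 4. By edgeR's test 7 of 9 members were called higher in m5C RIP than in input, and 6 by DESeq2, and 7 by edgeR without m5C WT library 1. By edgeR 32.3% of genes were called higher and 40.7% in either direction, and the median gene stood 6.26 above input on the log2 scale. Tap1 and Psmb8, with 0 counts in this input and few in cortex, entered the test through their fibroblast m5C libraries. Their calls are therefore not independent of the filter on low counts. Fitted values against 0 counts depend on the prior, so bounds against 3 counts are given instead. The mean fibroblast m5C level was at least 16.9-fold higher than input for H2-K1, 12.5-fold for Tapbp, 2.37-fold for Psmb10, 1.53-fold for Tap1 and 1.49-fold for Psmb8, and without m5C WT library 1 these bounds were 16.1, 12.2, 2.17, 1.49 and 1.39. The lowest m5C library of Psmb8, at 27.4 CPM, lay under the limit of 31.5 CPM, and the two-sided interval drawn for 0 input counts in the plot of levels reaches 38.8 CPM. Psmb9, at 20.8 CPM on average, lay under the limit of the input, so no fold is given. H2-D1 was 49.5 times its input level (95% counting interval 13.7 to 408) and B2m 17.9 times (7.65 to 55.0), while Tap2 was at 0.952 times (0.372 to 3.5), and was not called.

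**Figure D4:**
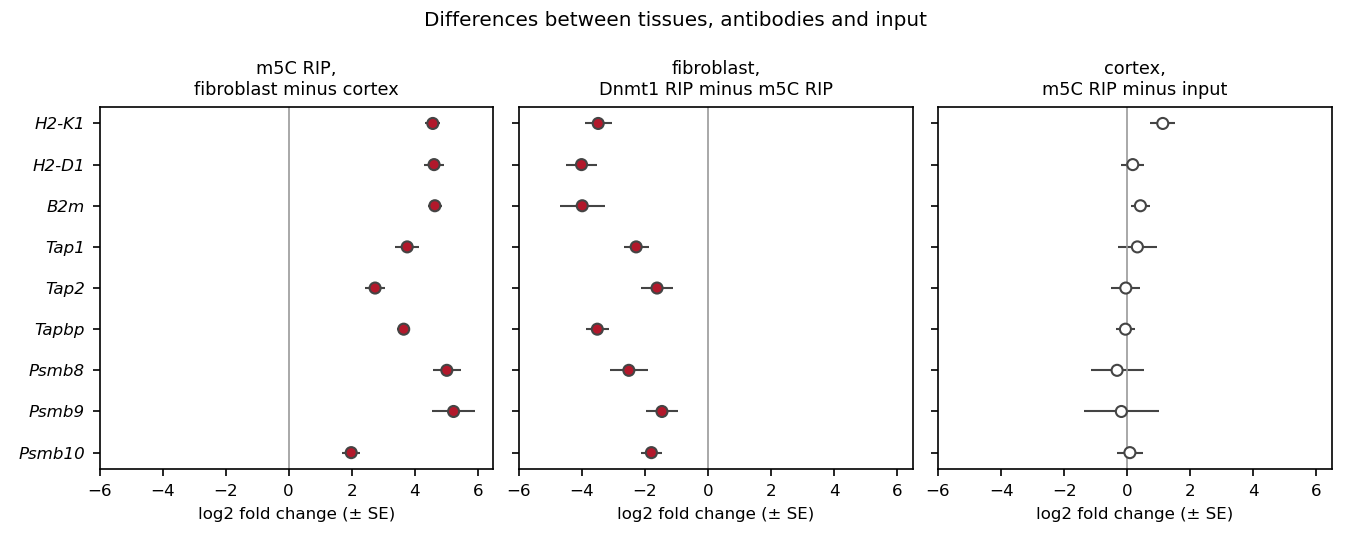
Log2 fold changes of the 9 genes with standard errors (horizontal axis) for fibroblast over cortex m5C RIP, fibroblast Dnmt1 RIP over m5C RIP, and cortex m5C RIP over cortex input; filled points passed an adjusted p of 0.05. All 9 lie above 0 in the first panel and below 0 in the second, and none passed in the third.

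Among libraries labelled fibroblast, the members were lower in the Dnmt1 RIP than in the m5C RIP. All 9 passed the test with lower levels over the mean of the 3 genotypes, where 21.4% of 17124 genes were called lower and 37.6% were called in either direction. The median log2 fold change was -2.51 against 0.24 over all genes. The chains of the presenting molecule and tapasin had the lowest values: -4.01 ± 0.50 (SE) for H2-D1 (adjusted p = 9.04e-05), -3.99 ± 0.71 for B2m (adjusted p = 0.000805), -3.51 ± 0.37 for Tapbp (adjusted p = 5.29e-05) and -3.48 ± 0.43 for H2-K1 (adjusted p = 8.67e-05). For these 4 genes no Dnmt1 RIP library reached any m5C library. That holds for 9.03% of genes tested.

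H2-K1 ran from 41.2 CPM in the lowest Dnmt1 RIP library through a median of 48.4 to 286 in the highest. H2-D1 ran from 46.6 through 66.9 to 316 CPM, and Tapbp from 15.5 through 51.1 to 107 CPM. B2m ran from 5.18 through 53.9 to 370 CPM, the widest relative range of the 4. The highest value of each was that of Het library 2, and even it stayed below the lowest fibroblast m5C library.

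The transporter and immunoproteasome genes had values nearer to 0, and their groups overlapped. The log2 fold change was -2.28 ± 0.40 for Tap1 (adjusted p = 0.000732), -2.51 ± 0.60 for Psmb8 (adjusted p = 0.00509) and -1.79 ± 0.32 for Psmb10 (adjusted p = 0.000892). It was -1.61 ± 0.49 for Tap2 (adjusted p = 0.0195) and -1.46 ± 0.52 for Psmb9 (adjusted p = 0.0391), the 2 calls that some alternatives ended. With total counts alone as the scaling Tap2 stood at -1.27 (adjusted p = 0.0505) and Psmb9 at -1.12 (adjusted p = 0.142), with a shift of 0.34 in the median of all genes. Without m5C WT library 1 the other 8 genes were still called and Psmb9 was at -1.41 (adjusted p = 0.0832). Without m5C WT library 2 neither Tap2 nor Psmb9 was called, at -1.49 and -1.40. Psmb9 was also not called without Dnmt1 RIP WT library 1, Het library 1, Hom library 1 or Hom library 2, with values from -1.11 to -1.49. The median of the 9 moved to -3.68 without Dnmt1 RIP WT library 2, to -3.62 without Het library 2 and to -3.36 without Hom library 2, with all 9 below 0 each time.

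Expressed as a percent of the mean fibroblast m5C level, the heavy chains and B2m stood at 0.552 to 14.9% in the 5 Dnmt1 RIP libraries other than Het library 2. Tap1 stood at 0 and 12% in WT and at 41.8 to 90.1% in the 4 Het and Hom libraries. Het library 2 lay between 27.1% for Tapbp and 177% for Psmb9, with Tap2 also above the m5C mean at 155%. The range across members within a library was therefore wide, and Psmb10 varied least in ratio between libraries, from 20.2 to 56.5%. Without m5C WT library 1 in the mean, the heavy chains and B2m stood at 0.553 to 14.9% outside Het library 2, Tap1 at 43.0 to 92.7% in Het and Hom, and Het library 2 at 27.7 to 182%.

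**Figure D5:**
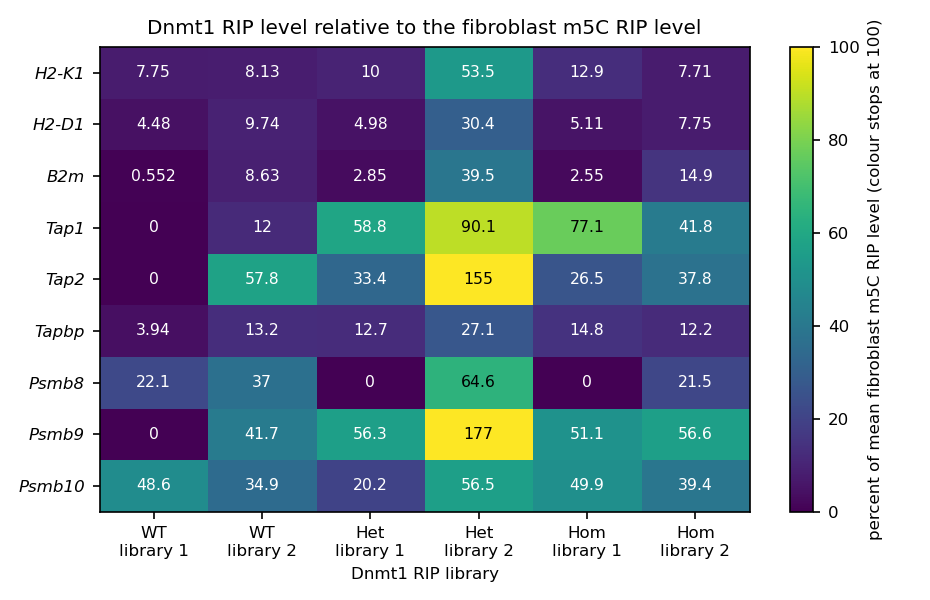
Level of each gene (rows) in each Dnmt1 RIP library (columns) as a percent of its mean level in the 4 fibroblast m5C libraries, printed in each cell and shown by colour up to 100. The column of Het library 2 runs from 27.1 to 177%, and the rows of the heavy chains and B2m stay at or below 14.9% in the other columns.

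The same markers moved with this difference as between tissues. Of 17 macrophage and microglia markers, 16 were lower in the Dnmt1 RIP (median -3.38), and their sum was 259 to 5904 CPM there against 8461 to 15330 CPM in m5C RIP. Fibroblast markers fell in 9 of 10 and rose in 1, Fap (median -2.23), with sums of 621 to 22120 CPM. All 12 neuron markers rose (median 1.71), summing to 3922 to 6439 CPM in the Dnmt1 RIP, 3428 CPM in fibroblast input and 635 to 1305 CPM in fibroblast m5C RIP. With m5C WT library 1 left out, 14 macrophage and 8 fibroblast markers were lower and all 12 neuron markers higher. The Dnmt1 RIP and input libraries labelled fibroblast thus held more counts of neuron markers than of fibroblast markers, apart from Dnmt1 RIP Het libraries 1 and 2. The part of these differences in the levels of the members was not tested, and antibody, fixation and messenger RNA purification cannot be told apart.

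Of the pathway's partners, 10 of 14 loading and trimming genes fell and none rose (median -1.58), with Pdia3, the thiol oxidoreductase of the loading complex, at -3.06 ± 0.35 and Hspa5 at -2.67 ± 0.37. Among other 20S proteasome genes 13 of 15 fell and none rose (median -1.33). Of the other class I heavy chain genes 3 of 12 fell (list median -0.23), H2-T22 at -2.66 ± 0.39, H2-T23 at -2.04 ± 0.32 and H2-M3 at -3.24 ± 0.76. Among the regulators 8 of 19 fell and 1 rose (median -0.84), or 7 and 0 (median -0.65) without m5C WT library 1. Rela, a subunit of NF-kB, stood at -2.01 ± 0.28, Jak1, a kinase of interferon receptors, at -1.97 ± 0.29 and the interferon gamma receptor chain Ifngr1 at -2.30 ± 0.35. The gene that rose was Nlrc5, by 0.98 ± 0.34, the opposite direction to the members; it was named after its value was seen.

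Between genotypes of the Dnmt1 RIP no member passed the test. For Het against WT 0 of 8 tested members and 0 of 13589 genes (0%) were called by edgeR, with 868 genes and 2 members at an unadjusted p under 0.05. DESeq2 called 26 genes, none a member, but gave H2-K1 and Tap1 no adjusted p, so it did not assess them. Psmb9 did not pass the filter on low counts. All 8 estimates were above 0, with a median of 1.41 against 0.03 over all genes. With the replicate number as a block, 6 of 8 were above 0 (median 1.45). The median moved with single libraries. Without Het library 2 it was -0.07 and 4 of 8 were above 0, without Het library 1 it was 2.21, and without WT library 1 or WT library 2 it was 0.87 or 2.57.

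The 2 libraries of H2-K1 stood at 41.4 and 43.4 CPM for WT, 53.5 and 286 for Het, and 69.1 and 41.2 for Hom. Both Het libraries were above both WT libraries, and the log2 fold change was 2.05 ± 0.69 (adjusted p = 0.732), or 0.56 without Het library 2. Tap1 held 0 and 2 counts (0 and 5.79 CPM) for WT, 28.4 and 43.5 CPM for Het, and 37.2 and 20.2 CPM for Hom. Psmb9 stood at 0 and 8.68 CPM for WT, 11.7 and 36.9 for Het, and 10.6 and 11.8 for Hom. For Tap1 and Psmb9 the Het and Hom libraries all lay above both WT libraries, a joint pattern whose share over all genes was not computed. Taken singly, Het lay above WT without overlap in 15.1% of genes tested and Hom in 16.4%. Psmb9 was not among the genes tested, and its WT libraries held 0 and 3 counts. The 0 in WT library 1 allows up to 15.5 CPM, above Het library 1 and both Hom libraries, and Hom library 1 held 4 counts. The order of the Psmb9 libraries is therefore within counting error. From pooled counts of Tap1 the ratio of Het to WT was 9.92 (95% counting interval 2.61 to 84.2) and that of Hom to WT 6.54 (1.69 to 55.9). The fitted log2 fold changes for Tap1 were 3.33 ± 1.00 for Het (adjusted p = 0.732; 3.12 without Het library 2) and 2.84 ± 1.02 for Hom (adjusted p = 1). They rest on the 2 counts of WT library 2, being 7.57 for Het and 7.05 for Hom without that library, and 2.65 and 2.14 without WT library 1. H2-K1 and Tap1 were the 2 of 8 members with Het levels above WT without overlap, which held for 15.1% of genes tested.

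For B2m the WT pair held 5.18 and 81.0 CPM, the Het pair 26.7 and 370, and the Hom pair 23.9 and 140. Library 2 exceeded library 1 in every genotype, and the genotypes overlapped. Its log2 fold change of 2.08 ± 1.18 for Het against WT (adjusted p = 0.821) became -0.64 without Het library 2. For H2-D1 the pairs were 46.6 and 101 CPM (WT), 51.8 and 316 (Het) and 53.2 and 80.7 (Hom), and its value of 1.31 ± 0.72 (adjusted p = 0.818) became -0.35. Only Het library 2 was high for H2-D1.

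Het library 2 held each of the 9 members at a higher level than Het library 1, as it did 53.6% of 15737 genes with at least 10 counts in the pair. The members summed to 1294 CPM in it and 250.6 CPM in Het library 1, against 155 and 359 CPM for the WT pair and 300 and 396 CPM for Hom. Macrophage and microglia markers summed to 5904 CPM in Het library 2, to 329 in Het library 1, to 259 and 1724 for the WT pair and to 303 and 1385 for Hom. Within each genotype library 2 had the higher sum of both. In Hom this was B2m, since the other 8 members summed to 276 CPM in library 1 and 256 in library 2. With a prior count of 2, library 2 was higher for 7 of the 9 members in WT, 9 in Het and 4 in Hom. Of genes with at least 10 counts in the pair, 41.2%, 53.6% and 37.0% were higher in library 2. The part of those markers in the level of the members was not tested. Fibroblast markers summed to 621 and 2112 CPM for the WT pair, 22120 and 8036 for Het, and 1220 and 2664 for Hom.

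For Hom against WT in the Dnmt1 RIP 0 of 8 members and 0% of genes were called, with 1 member and 309 genes at an unadjusted p under 0.05. The median was 0.21 against 0.01 over all genes, and 5 of 8 were above 0. It was 1.87 (7 of 9) without WT library 2, 0.03 (5 of 9) without WT library 1, and -0.20 (3 of 8) with total counts alone, where that of all genes was -0.38. Tap1 was higher and Psmb8 lower without overlap, as were 16.4% and 13.4% of genes tested. Psmb8 was at 10.4 and 17.4 CPM for WT and at 0 and 10.1 CPM for Hom. For Hom against Het 0 members and 0% of genes were called by edgeR (1 member and 629 genes at an unadjusted p under 0.05, and 15 genes by DESeq2), and 7 of 8 estimates were below 0 (median -1.28 against -0.02). That median became 0.02, with 4 of 8 above 0, without Het library 2 and -2.13 without Het library 1. H2-K1 stood at -1.73 ± 0.64 (adjusted p = 0.988), and at -0.23 without Het library 2.

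In fibroblast m5C RIP the genotypes differed less. For Het against WT 0 of 9 members were called, against 0.0326% of 12273 genes, and the median was -0.23 against -0.02. The Het library lay below both WT libraries for 5 members (H2-K1, Tap2, Tapbp, Psmb8 and Psmb10) and above both for B2m, patterns found in 31.7% and 30.3% of genes. Psmb10 had the smallest p, at -0.84 ± 0.40 (unadjusted p = 0.0362, adjusted p = 1), and Psmb8 stood at -0.74 ± 0.43. In a fit of the 10 fibroblast RIP libraries these were -0.83 and -0.73 (member median -0.21), and in that fit without WT library 1 they were -0.57 and -0.53 (median -0.06).

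For Hom against WT 0 of 9 members were called in fibroblast m5C RIP, against 0.00815% of genes, and 0 had an unadjusted p under 0.05. Of the 9 estimates 8 were above 0, with a median of 0.41 against -0.01. The Hom library was above both WT libraries for 8 members, all but Tap2, as it was for 31.1% of genes, but WT library 1 shares its counts. In the fit of 10 fibroblast RIP libraries the median was 0.40 and H2-D1 stood at 0.54, and in that fit without WT library 1 they were 0.52 and 0.90. With 1 library per mutant genotype the spread came from the 2 WT libraries alone (1 residual degree of freedom), and the lone Het or Hom library is assumed to vary as much.

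Over both tissues, 0 of 9 members and 0% of genes were called in m5C RIP for either mutant genotype against WT. For Hom all 9 estimates were above 0 (median 0.33 against 0.00 over all genes), with 1 member, H2-K1, at an unadjusted p under 0.05 (0.54 ± 0.24, adjusted p = 1). Without m5C WT library 1, 8 of 9 were above 0 (median 0.41; H2-K1 at 0.73), without WT library 2, 8 of 9 (0.25), and without the fibroblast Hom library, 6 of 9 (0.37). For Het 3 of 9 were above 0 (median -0.18 against -0.03) and none had an unadjusted p under 0.05, with 4 of 9 (-0.02) without m5C WT library 1 and 5 of 9 (0.01) without the fibroblast Het library. In cortex alone, with 1 library per genotype and no test, the median log2 ratio of the members was 0.03 for Het over WT and 0.21 for Hom over WT, against 0.03 and 0.00 for genes with at least 50 counts. Tap1 was the member at least 2-fold higher in both, and Psmb8 the one at least 2-fold lower in both. Of genes with that many counts, which neither had, 1.7% (Het) and 1.23% (Hom) were that much higher and 1.2% and 1.31% that much lower. For Tap1, with 1 count in WT, 5 in Het and 16 in Hom, the ratio to WT was 4.48 for Het, with a 95% counting interval from 0.501 to 212. For Hom it was 8.56 (1.33 to 359). For Psmb8, with 4 counts in WT, 1 in Het and 2 in Hom, the ratio to WT was 0.224 (0.00455 to 2.26) for Het and 0.267 (0.0242 to 1.86) for Hom.

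Whether the effect of genotype differed between the antibodies was tested by an interaction in the 10 fibroblast RIP libraries. For Het 0 of 9 members and 0% of genes were called (573 genes and 2 members at an unadjusted p under 0.05), and all 9 estimates were above 0, with a median of 1.88 against 0.20. Tap1 stood at 3.36 ± 1.08 and H2-K1 at 2.46 ± 1.08 (both adjusted p = 1), and without Dnmt1 RIP Het library 2 at 2.97 and 0.76, where the median was 0.38. The median was 2.61 without Het library 1, 1.10 and 2.76 without Dnmt1 RIP WT libraries 1 and 2, where Tap1 stood at 2.60 and 7.67, and 1.77 without m5C WT library 1. For Hom 0 members and 0% of genes were called (203 genes and 1 member at an unadjusted p under 0.05), with 5 of 9 above 0 and a median of 0.10 against 0.20. That median ranged from -0.23 without Dnmt1 RIP WT library 1 to 1.65 without WT library 2, and was 0.20 without m5C WT library 1 and -0.27 with total counts alone, where that of all genes was -0.34. In WT Dnmt1 RIP against fibroblast input 0 of 9 members and 0% of genes were called by edgeR, with 4382 genes and 1 member at an unadjusted p under 0.05 and 11 genes by DESeq2.

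Across the 15 libraries each member's log2 CPM was correlated with the mean of the other 8, as a description with no test. Pearson's r ran from 0.787 for Psmb9 and 0.818 for Tap2 to 0.927 for H2-D1 and 0.946 for H2-K1. The libraries fall into groups by tissue and antibody and differ in depth, and the points share both. Among 15545 other genes averaging at least 5 CPM, those most like the mean of the 9 members were Itgb2 (r = 0.986), Gabarap (0.980), Spp1 (0.979), Cd14 (0.979) and Unc93b1 (0.977). Itgb2 encodes a leukocyte integrin chain and Cd14 a coreceptor for lipopolysaccharide on monocytes and macrophages. Itgb2 had 72.1 to 124 CPM in fibroblast m5C RIP, 0 to 76.4 in the Dnmt1 RIP and 3.64 to 4.88 in cortex m5C RIP, and Cd14 164 to 267, 0 to 112 and 2.44 to 2.91. Both were at 0 in fibroblast input.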

How the data were processed

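The authors deposited raw counts, 1 table of 31017 gene symbols per library. The submitters' processing notes name Trim Galore 0.4.1, HISAT2, featureCounts and mm10; the annotation, strand setting and other versions were not given in the sources used here. In 6 tables, 5 entries for reads in no gene were left out of library sizes, and genes held 3.79 to 10.1% of all entries there. Whether ribosomal RNA depletion or polyA enrichment made each library is unclear, since the labels name both.

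Groups came from the titles. Coordinates and exon lengths came from GENCODE M21 (30464 symbols matched). Tests used the quasi-likelihood functions of edgeR 4.0.16 (R 4.3.3) after filterByExpr (a minimum count of 10 and total of 15, groups as above) and TMM scaling, with Benjamini-Hochberg adjustment over all genes tested at a threshold of 0.05. A standard error is the log2 fold change over the square root of F. Separate fits held the 6 Dnmt1 RIP libraries, the 4 fibroblast m5C libraries, the 7 m5C libraries with tissue as a covariate, these with both inputs, the 10 fibroblast RIP libraries, and the Dnmt1 RIP libraries with input. The code was tested on simulated data with 1 spread for all genes. Of 4-fold changes it recovered 18% for Het against WT in the Dnmt1 RIP, 95% for fibroblast over cortex m5C RIP and 3% for WT Dnmt1 RIP against input. For 16-fold changes these were 84%, 98% and 29%. An absent call in the Dnmt1 RIP fits therefore does not show that a 4-fold difference is absent. Log2 ratios without a test used a prior count of 2. The members, gene lists and tests were chosen with earlier results of these data known. Named were the members, Dnmt1, up to 4 genes per list with the smallest p in a comparison, and the 5 genes most correlated with the members. Genes that moved alone in their direction within a list, and those marked in the text, were named after their values were seen. So were the members whose genotype values are printed. The alternatives were other scalings (RLE, or total counts alone), testing without the filter, DESeq2 1.42.0, dropping the 4 abundant genes, dropping each library in turn, a replicate block, and other library sets. Tables and plots were made in Python 3.11.15 (matplotlib 3.10.9, numpy 2.4.6, pandas 2.3.3, SciPy 1.17.1).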

Additional observations from a re-analysis of the deposited data

How the results depend on the processing

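For fibroblast over cortex m5C RIP, all 9 members kept their direction and their call under each of 12 alternatives. For Dnmt1 RIP against m5C RIP all 9 stayed below 0 under 13 alternatives and 7 kept their call under each; Psmb9 (-1.35 with RLE factors, -1.39 with DESeq2) lost it under 9 and Tap2 under 2. Over all comparisons, 80 of 1484 values of members under alternatives changed sign, 0 of them in these comparisons. For Het against WT in the Dnmt1 RIP, H2-D1 ranged from -0.35 (without Het library 2) to 2.20 and B2m from -0.64 to 5.41 when 1 library was left out.

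Without the filter on low counts, calls over all genes were 192 for Het against WT (with 2 members, H2-K1 at 2.20 and B2m at 2.22), 13 for Hom against WT and 113 for Hom against Het (all Dnmt1 RIP), 2 for Het in fibroblast m5C RIP, 10 for Het and 10 for Hom over both tissues, 74 for cortex m5C RIP against input, 12 and 1 for the Het and Hom interactions, and 1249 for WT Dnmt1 RIP against input. DESeq2 called 26 (Het against WT) and 15 (Hom against Het), again for the Dnmt1 RIP, 0 for Het and 0 for Hom in fibroblast m5C RIP, 3768 for fibroblast m5C RIP against input (5906 by edgeR) and 11 for WT Dnmt1 RIP against input. With total counts alone there were 2 for Hom against WT in the Dnmt1 RIP, 2 for Het in fibroblast m5C RIP and 1211 for WT Dnmt1 RIP against input. Removing the 4 abundant genes gave 2 for Hom in fibroblast m5C RIP and 341 for WT Dnmt1 RIP against input. In the fit of 10 fibroblast RIP libraries, Het and Hom in m5C RIP had 0 each, also without m5C WT library 1.

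Leaving out 1 library, calls ranged from 0 to 38 for Het against WT and 0 to 35 for Hom against Het (both highest without Het library 2), 0 to 10 for Het and 0 to 17 for Hom over both tissues (both highest without m5C WT library 1), 15 to 42 for cortex m5C RIP against input, 0 to 6 for the Het interaction and 0 to 3 for WT Dnmt1 RIP against input. With the replicate number as a block, 0 genes were called in all 3 genotype comparisons of the Dnmt1 RIP. For Het against WT, H2-K1 was then at 1.92 and Tap1 at 3.33, and 6 of 8 members were above 0. Libraries of the same number deviated together only weakly (r = -0.021, 0.276 and 0.050 for the 3 pairs of genotypes), so the numbers were not taken to pair them. Not run were omissions that end a comparison: a WT library from the 4 fibroblast m5C libraries, or the lone Het or Hom library from the antibody comparison.

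Depth limits fibroblast input most, where the 9 members had 11 counts, and Psmb9 in cortex, with 3 counts. The Dnmt1 RIP has 2 libraries per genotype and the m5C RIP 1 for most.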
